A study of Mus musculus with 12 samples.

Results

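The genes described here encode the machinery that docks, primes and fuses synaptic vesicles. They were taken by symbol from the probe annotation of the arrays, without use of any measured value: syntaxins (Stx), syntaxin-binding proteins (Stxbp), SNAP and VAMP proteins, synaptotagmins (Syt), complexins (Cplx), synapsins (Syn), synaptogyrins (Syngr), SV2 and Rab3 proteins, Rims proteins, and Syp, Nsf, Bsn, Pclo and Unc13a to Unc13c. Of 14860 genes that had a probeset with 1 symbol, 70 belonged to the group. A further 3 genes of these families, Stx3, Stxbp3 and Vamp1, lay on probesets listed with several symbols and were left out.

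Affymetrix Mouse Exon 1.0 ST arrays were hybridized with RNA of the neocortex of single mouse embryos on E14.5, from 4 Tbr1 KO, 2 Tbr2 cKO, 3 Tbr1/2 dKO and 3 control embryos. Tbr1 KO embryos were null for Tbr1 in all cells. In Tbr2 cKO embryos a conditional allele of Tbr2 (gene symbol Eomes) was deleted by Cre. Tbr1/2 dKO embryos combined both (Tbr1-/-;Tbr2 2F/2F;Nes11Cre), where Nes11Cre is driven by Nestin sequences and acts in neural progenitors and their progeny. Control embryos had intact copies of both factors, with no Cre recombination at Tbr2. Sex was not given. All values are log2 expression, so that a difference of 1 is a doubling of signal. Probes differ in response, and levels were therefore compared between embryos and never between genes. These are bulk tissue values, in which fewer cells of a type and less RNA per cell cannot be told apart.

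Fusion of a vesicle is driven by a bundle of SNARE proteins, with VAMP on the vesicle and syntaxin and SNAP-25 on the target membrane. Munc18-type proteins, encoded by some Stxbp genes such as Stxbp2, and Unc13 proteins guide the assembly of the bundle. Complexins clamp it, and synaptotagmins sense calcium. The same families also serve secretion and membrane traffic in cells without synapses. At E14.5 most neocortical neurons are young and migrating. Tbr2 is the T-box factor of intermediate progenitors, and Tbr1 that of the early projection neurons that arise from them.

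The targeted genes followed the genotypes. Tbr1 was at 9.76 to 10.06 for Tbr1 KO, 10.39 to 10.57 for Tbr2 cKO and 9.52 to 9.69 for Tbr1/2 dKO, against 10.88 to 11.01 in control. Eomes was at 11.56 to 12.14 for Tbr1 KO, 8.20 to 9.19 for Tbr2 cKO and 8.37 to 8.65 for Tbr1/2 dKO, against 11.70 to 12.13 in control. Where the probes lie relative to the deleted parts was not examined.

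Few of the vesicle-release genes passed the test in any of the mutants. A member was called where limma, fitted to all 14860 genes, gave a Benjamini-Hochberg adjusted p under 0.05. In Tbr1/2 dKO, Stxbp6 and Syt13 were upregulated, and Stxbp2, Syt1 and Syt7 were downregulated. In Tbr1 KO only Stxbp6 was called, as upregulated, and in Tbr2 cKO no member was called. Direct comparison of the mutants added Sv2b, higher in both mutants that lacked Tbr2 than in Tbr1 KO.

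Both the counts of called members and the shares of all genes called were small. In Tbr1/2 dKO against control, 2 of 70 members (2.86%) were called higher, where 1.20% of all genes were. There, 3 members (4.29%) were called lower, where 1.90% of all genes were. In Tbr1 KO against control, 1 member (1.43%) was called higher, with 0.215% of all genes, and 0 were called lower, with 0.404%. In Tbr2 cKO against control the counts were 0 higher and 0 lower, with 0.249% and 0.404% of all genes.

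At an unadjusted p under 0.05 in the same limma fit, more members were lower than higher in each mutant. In Tbr1 KO against control, 3 members (4.29%) were higher and 6 (8.57%) lower, where 3.05% and 3.47% of all genes were. In Tbr2 cKO against control, 1 (1.43%) was higher and 8 (11.4%) lower, where 3.24% and 6.80% of all genes were. In Tbr1/2 dKO against control, 4 (5.71%) were higher and 10 (14.3%) lower, where 5.81% and 6.47% of all genes were. The 3 comparisons share their control embryos, so that these counts are not independent of each other.

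Most members moved by less than 0.5 on the log2 scale: 68 of 70 for Tbr1 KO, 69 for Tbr2 cKO and 65 for Tbr1/2 dKO. So did most of all 14860 genes, with 14663, 14512 and 14381 in the same order. The median log2FC of the 70 members was -0.02 in Tbr1 KO, with a median of -0.01 over all genes. It was -0.05 in Tbr2 cKO, with -0.01 over all genes, and -0.07 in Tbr1/2 dKO, with +0.01 over all genes. The values of mutant and control embryos did not overlap for 5 members (7.14%) in Tbr1 KO, where 7.49% of all genes were so separated. They did not overlap for 24 members (34.3%) in Tbr2 cKO, with 28.9% of all genes, and for 19 members (27.1%) in Tbr1/2 dKO, with 17.1% of all genes.

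**Figure D1:**
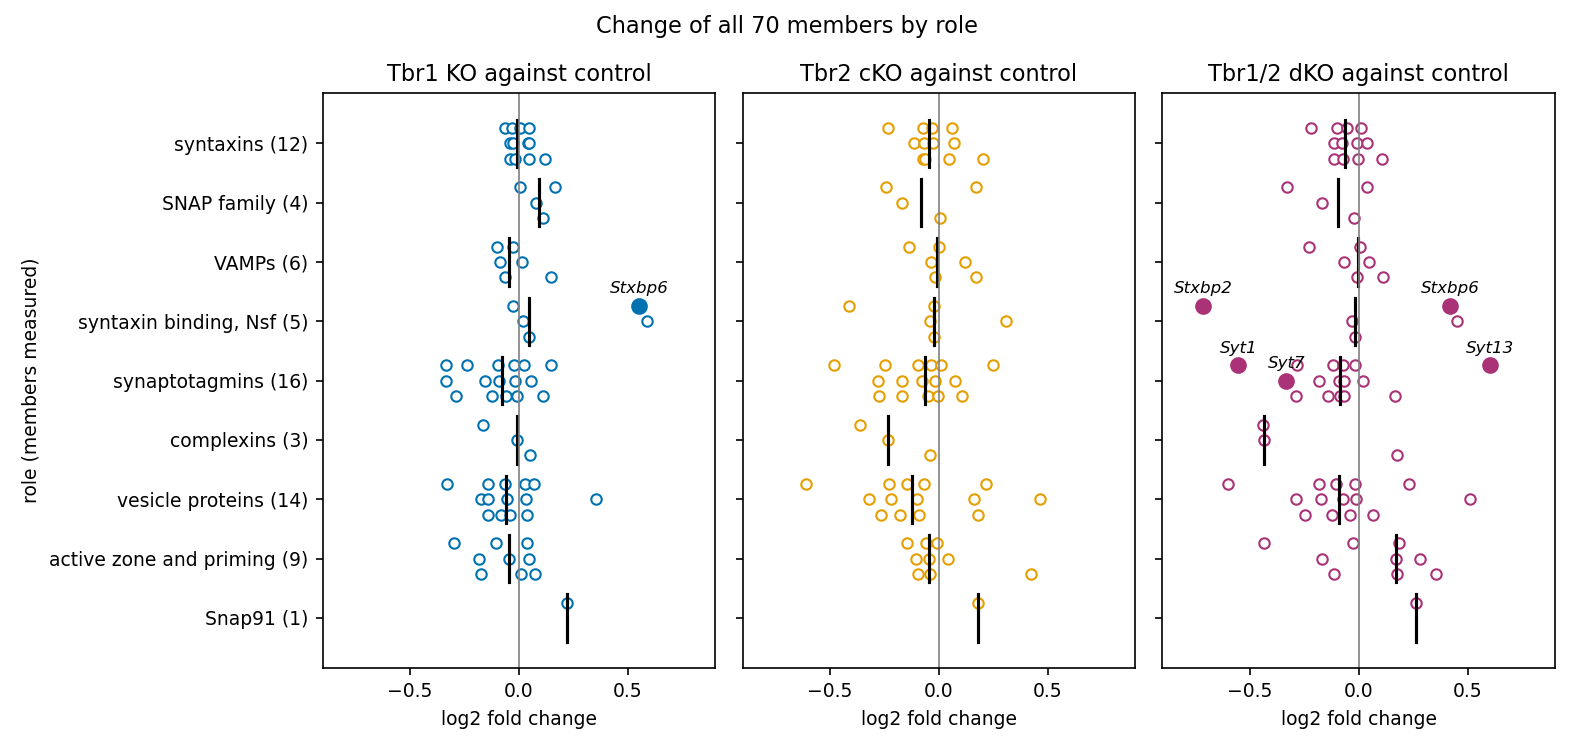
Log2 fold change of each of the 70 members (circles) against control in Tbr1 KO, Tbr2 cKO and Tbr1/2 dKO, in rows by role with the number of members measured in brackets. Filled and named circles passed limma at an adjusted p under 0.05, and black bars are the median of a row; 1 member was called for Tbr1 KO, 0 for Tbr2 cKO and 5 for Tbr1/2 dKO.

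Promoter sequence is shown for the members whose calls held best, Stxbp6 and Stxbp2, and for a start of Sv2b, since the deleted factors bind T-box motifs. The 250 bases before a transcript start were read from a RefSeq table on build GRCm38.p6, which had 70 windows for 54 of the members and none for Syt7 or Syt13. The T-box half-site GGTGTGA was looked for on both strands in windows of 300 bases (250 before the start and 50 after). It lay in 2 of the 70 member windows (2.86%), and in 3.98% of 32851 windows of all genes. The matches were in 1 of 4 Sv2b windows, 105 bases before the start, and in Stx19, 36 bases after the start. The starts of the Stxbp6, Stxbp2 and Sv2b windows shown lie inside the annotated genes, downstream of the outermost start, and the capitals mark the motif.
Stxbp6 (chr12:45074484-45074733, minus strand, no match): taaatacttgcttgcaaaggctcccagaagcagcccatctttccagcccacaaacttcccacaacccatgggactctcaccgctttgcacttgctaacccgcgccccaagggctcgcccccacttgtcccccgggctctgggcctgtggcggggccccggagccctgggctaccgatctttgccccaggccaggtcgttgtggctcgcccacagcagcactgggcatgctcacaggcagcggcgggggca
Stxbp2 (chr8:3630859-3631108, plus strand, no match): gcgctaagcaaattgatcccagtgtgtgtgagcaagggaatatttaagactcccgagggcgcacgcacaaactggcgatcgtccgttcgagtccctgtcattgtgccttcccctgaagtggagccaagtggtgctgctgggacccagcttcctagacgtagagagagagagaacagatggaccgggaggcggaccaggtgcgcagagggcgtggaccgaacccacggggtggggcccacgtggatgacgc
Sv2b (chr7:75302610-75302859, minus strand, motif in capitals): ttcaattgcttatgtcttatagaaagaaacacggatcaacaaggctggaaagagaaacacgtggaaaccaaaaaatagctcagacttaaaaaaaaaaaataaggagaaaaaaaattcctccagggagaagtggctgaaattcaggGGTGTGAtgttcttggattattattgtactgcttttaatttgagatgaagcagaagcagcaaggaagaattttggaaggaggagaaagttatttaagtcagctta

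Stxbp6 was higher in both mutants that lacked Tbr1. Stxbp6 (chr12:44852484-45075118, GRCm38.p6) encodes amisyn, a cytosolic protein with a VAMP-like SNARE motif that binds syntaxin and competes with VAMP. It was at 10.01, 10.06, 10.06 and 9.91 for Tbr1 KO, 9.44 and 9.43 for Tbr2 cKO, and 9.85, 9.82 and 9.96 for Tbr1/2 dKO, against 9.44, 9.43 and 9.50 in control. All 7 embryos without Tbr1 lay above all 5 others. Stxbp6 was upregulated in Tbr1 KO (log2FC = +0.55 ± 0.06 SE, 1.47-fold; limma adjusted p = 0.000759) and in Tbr1/2 dKO (log2FC = +0.42 ± 0.06 SE, 1.34-fold; limma adjusted p = 0.00291). In Tbr2 cKO the log2FC was -0.02, with a 95% confidence interval of -0.17 to 0.13 (limma adjusted p = 0.956).

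The mutants also differed from each other in Stxbp6. It was lower in Tbr2 cKO than in Tbr1 KO (log2FC = -0.58 ± 0.06 SE; limma adjusted p = 0.00254). Tbr1/2 dKO was above Tbr2 cKO by 0.44 ± 0.07 SE (limma adjusted p = 0.0397), a call that was lost in 11 of 12 fits that left out 1 embryo each, with adjusted p up to 0.348, and that held only without Tbr1 KO embryo 4 (limma adjusted p = 0.0408). Between Tbr1/2 dKO and Tbr1 KO the difference was -0.13 (limma adjusted p = 0.407). Both calls against control held in all 12 such fits, with adjusted p of at most 0.00776 in Tbr1 KO and 0.0186 in Tbr1/2 dKO.

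Stxbp2 was lower in Tbr1/2 dKO than in any other genotype, and passed the test against control and Tbr1 KO. Stxbp2 (chr8:3630960-3643998, GRCm38.p6) encodes Munc18-2, a syntaxin-binding protein known for granule secretion by immune cells and platelets. It was at 9.94, 10.28, 10.26 and 10.17 for Tbr1 KO, 9.94 and 9.62 for Tbr2 cKO, and 9.34, 9.55 and 9.53 for Tbr1/2 dKO, against 10.16, 10.27 and 10.14 in control. All 3 Tbr1/2 dKO embryos lay below every other embryo. Stxbp2 was downregulated in Tbr1/2 dKO against control (log2FC = -0.71 ± 0.11 SE, 0.609-fold; limma adjusted p = 0.00396) and against Tbr1 KO (log2FC = -0.69 ± 0.10 SE; limma adjusted p = 0.00784). Both calls held without any 1 embryo, with adjusted p of at most 0.0243 against control and 0.0318 against Tbr1 KO. With the replicate number as a block, the call against Tbr1 KO was lost (log2FC = -0.68; limma adjusted p = 0.0642). In that comparison the deviations of all 3 same-numbered pairs of embryos correlated positively, at 0.18 to 0.38. In Tbr2 cKO the log2FC was -0.41 (limma adjusted p = 0.243), and in Tbr1 KO it was -0.03 (limma adjusted p = 0.986).

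The other members that bind syntaxins or act on SNARE bundles were not called. Stxbp5l, which encodes tomosyn-2, an inhibitor of SNARE assembly, was at 8.50, 7.84, 8.77 and 8.47 for Tbr1 KO, 8.16 and 8.07 for Tbr2 cKO, and 8.52, 7.64 and 8.61 for Tbr1/2 dKO, against 7.46, 7.91 and 8.05 in control. Its log2FC of +0.59 in Tbr1 KO was the highest of any member there, but the values overlapped with control (limma adjusted p = 0.747). Nsf, the ATPase that takes spent SNARE bundles apart, was among the steadiest members. Its log2FC was +0.02 for Tbr1 KO (95% interval -0.10 to 0.14), -0.04 for Tbr2 cKO (-0.18 to 0.10) and -0.01 for Tbr1/2 dKO (-0.14 to 0.11). Stxbp4 had +0.05, -0.02 and -0.03 in the same order.

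SNARE proteins themselves were not called in any comparison. None of the 12 syntaxins, 4 SNAP family members and 6 VAMPs passed limma. Against control, an unadjusted limma p under 0.05 was reached by Snap25 and Snap47 in Tbr1/2 dKO, Snap47 and Stx6 in Tbr2 cKO, and Vamp4 in Tbr1 KO. The log2FC of the syntaxins against control lay between -0.23 and 0.20. Stx1a, the neuronal plasma-membrane syntaxin, had a log2FC of +0.04 for Tbr1 KO, -0.03 for Tbr2 cKO and -0.05 for Tbr1/2 dKO. Vamp2, the main VAMP of synaptic vesicles, had -0.03, -0.04 and -0.07 in the same order. Its 95% interval in Tbr1/2 dKO was -0.23 to 0.10, which lies within 0.5 on either side of 0. Stx6 and Vamp4, which act in traffic between endosomes and the Golgi, had log2FC of -0.23 in Tbr2 cKO (limma adjusted p = 0.386) and +0.15 in Tbr1 KO (limma adjusted p = 0.641).

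Snap25 was the SNARE with the widest difference between mutants. It encodes SNAP-25, the plasma-membrane SNARE of neurons. It was at 12.66, 12.49, 12.70 and 12.57 for Tbr1 KO, 12.13 and 12.42 for Tbr2 cKO, and 12.20, 11.82 and 12.32 for Tbr1/2 dKO, against 12.50, 12.28 and 12.55 in control. All Tbr1/2 dKO values lay below all Tbr1 KO values, with a log2FC of -0.49 ± 0.12 SE (limma adjusted p = 0.102). Against control the log2FC was +0.16 for Tbr1 KO, -0.17 for Tbr2 cKO and -0.33 for Tbr1/2 dKO (limma adjusted p = 0.31), and without Tbr1/2 dKO embryo 2 the last value was -0.18. Snap47, a relative without the membrane anchor of SNAP-25, had a log2FC of -0.24 in Tbr2 cKO (limma adjusted p = 0.25) and -0.17 in Tbr1/2 dKO.

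Among calcium sensors, the fast sensor Syt1 was downregulated in Tbr1/2 dKO. Syt1 (chr10:108497650-109010980, GRCm38.p6) encodes the sensor of synchronous release. It was at 11.12, 10.85, 10.86 and 10.73 for Tbr1 KO, 10.95 and 11.01 for Tbr2 cKO, and 10.68, 10.54 and 10.80 for Tbr1/2 dKO, against 11.37, 11.22 and 11.08 in control. The 3 Tbr1/2 dKO values lay below all control values, and both Tbr2 cKO values and 3 of 4 Tbr1 KO values did so too. The log2FC was -0.55 ± 0.11 SE in Tbr1/2 dKO (0.683-fold; limma adjusted p = 0.0178), -0.33 in Tbr1 KO (limma adjusted p = 0.358) and -0.24 in Tbr2 cKO (limma adjusted p = 0.54). The call was lost without Tbr1/2 dKO embryo 2 (adjusted p = 0.0632), control embryo 1 (0.0864) or control embryo 2 (0.0639), all from limma.

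Syt7 was close to the threshold. It encodes a slow sensor of high calcium affinity that serves asynchronous release and facilitation (chr19:10388802-10453181, GRCm38.p6). It was at 9.24, 9.12, 9.12 and 9.05 for Tbr1 KO, 9.28 and 9.22 for Tbr2 cKO, and 9.02, 9.03 and 9.22 for Tbr1/2 dKO, against 9.42, 9.31 and 9.53 in control. All 9 mutant values lay below all control values. The log2FC was -0.29 for Tbr1 KO (limma adjusted p = 0.191), -0.17 for Tbr2 cKO (limma adjusted p = 0.578) and -0.33 ± 0.08 SE for Tbr1/2 dKO (limma adjusted p = 0.0481). The call in Tbr1/2 dKO held in 3 of 12 fits that left out 1 embryo, namely Tbr1 KO embryo 1, Tbr1/2 dKO embryo 3 or control embryo 2, and the adjusted p without any of the other embryos was up to 0.154.

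Syt13 moved in the opposite direction. Syt13 (chr2:92915101-92956051, GRCm38.p6) encodes an atypical synaptotagmin without the residues that bind calcium. It was at 8.70, 8.53, 8.47 and 8.43 for Tbr1 KO, 8.75 and 8.59 for Tbr2 cKO, and 8.92, 9.25 and 8.91 for Tbr1/2 dKO, against 8.49, 8.23 and 8.55 in control. The 3 Tbr1/2 dKO embryos were above all others. It was upregulated in Tbr1/2 dKO (log2FC = +0.60 ± 0.12 SE, 1.52-fold; limma adjusted p = 0.0161), a call lost without control embryo 2 (limma adjusted p = 0.0674). In Tbr1 KO and Tbr2 cKO the log2FC was +0.11 and +0.25, with limma adjusted p of 0.955 and 0.569. Tbr1/2 dKO was above Tbr1 KO by 0.49 (limma adjusted p = 0.061).

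**Figure D2:**
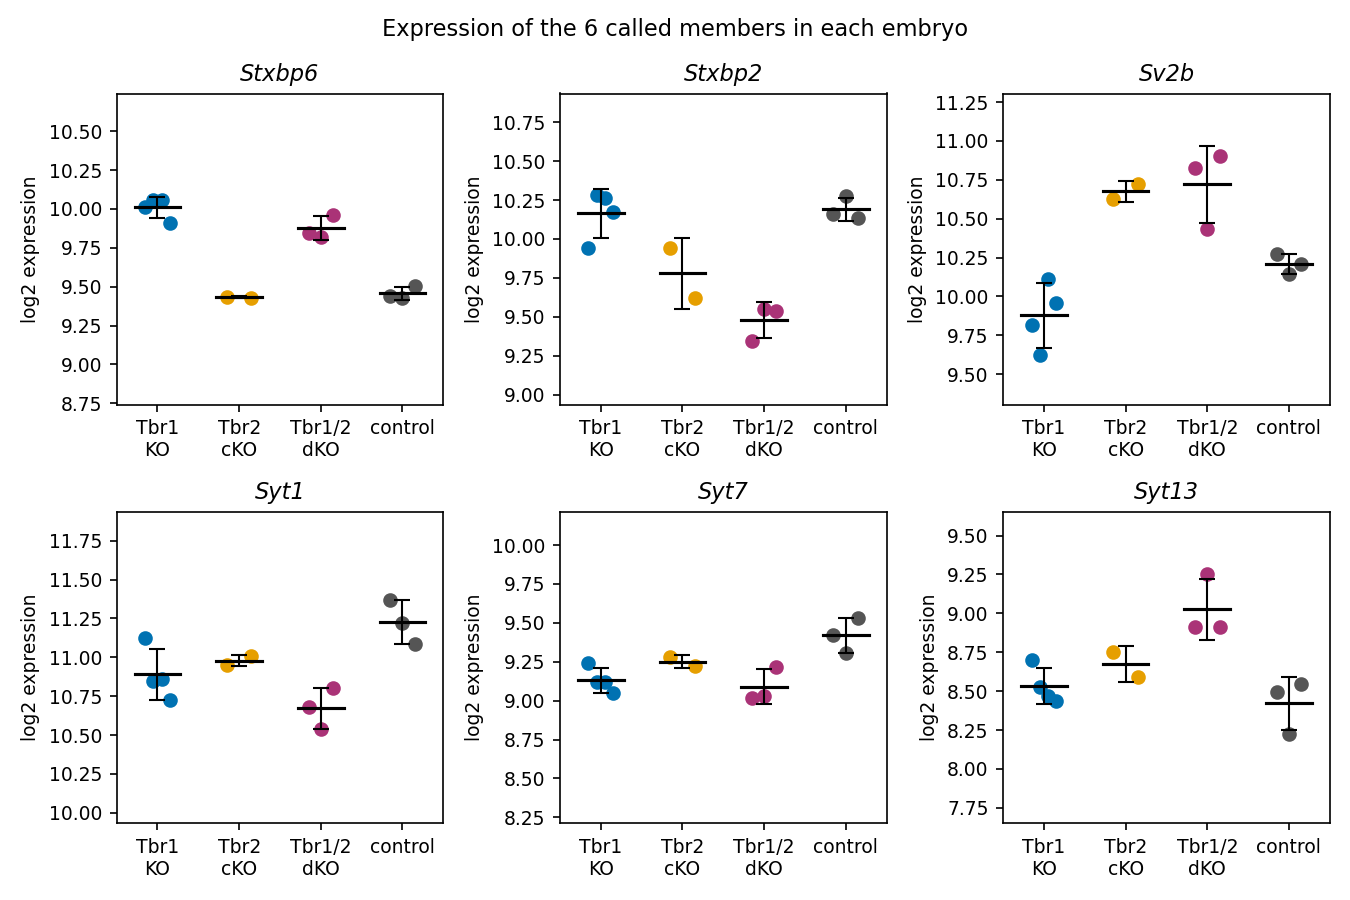
Log2 expression in each embryo (points) of the 6 members called in any comparison, by genotype from left to right as Tbr1 KO (n = 4), Tbr2 cKO (n = 2), Tbr1/2 dKO (n = 3) and control (n = 3). Horizontal bars are means and whiskers the SD, each panel spans the same range of 2 log2 units, and Stxbp6 lies above control in the mutants without Tbr1 while Sv2b lies above control in those without Tbr2.

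The remaining synaptotagmins were not called. Of all 16 synaptotagmins, 12 had a negative log2FC for Tbr1 KO, 12 for Tbr2 cKO and 13 for Tbr1/2 dKO. Over all genes, 52.5%, 54.4% and 45.9% were negative in these comparisons. Over all 70 members, synaptotagmins included, 55.7%, 71.4% and 68.6% were negative, so that the tilt was not particular to synaptotagmins in the mutants without Tbr2. Syt4, an atypical synaptotagmin of neurons, was at 10.46, 10.31, 10.44 and 10.34 for Tbr1 KO, 10.84 and 10.82 for Tbr2 cKO, and 10.65, 10.26 and 10.72 for Tbr1/2 dKO, against 10.86, 10.58 and 10.73 in control. All 4 Tbr1 KO values lay below all control values (log2FC = -0.33; limma adjusted p = 0.418), whereas Tbr2 cKO had a log2FC of +0.11. Syt3, a sensor of high calcium affinity, had a log2FC of -0.28 in Tbr2 cKO (limma adjusted p = 0.268) and -0.28 in Tbr1/2 dKO (limma adjusted p = 0.0888), and -0.02 in Tbr1 KO. Syt6 was at 7.62 and 7.81 in Tbr2 cKO and 8.21, 7.58 and 7.93 in Tbr1/2 dKO, against 8.18, 8.17 and 8.22 in control, with a log2FC of -0.48 in Tbr2 cKO (limma adjusted p = 0.269).

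Complexins bind the assembled SNARE bundle and both clamp and promote fusion. Cplx2 was at 10.06, 9.80, 9.68 and 9.66 for Tbr1 KO, 9.66 and 9.81 for Tbr2 cKO, and 9.48, 9.45 and 9.67 for Tbr1/2 dKO, against 9.90, 9.96 and 10.04 in control. All values of both mutants without Tbr2 lay below all control values. The log2FC was -0.44 ± 0.11 SE in Tbr1/2 dKO (limma adjusted p = 0.0517), just short of the threshold, which it passed without Tbr1 KO embryo 1 (limma adjusted p = 0.0135). Cplx1 had the same log2FC, -0.44, in Tbr1/2 dKO, but its values were scattered, from 9.45 to 10.20 in Tbr1/2 dKO and from 9.87 to 10.68 in Tbr1 KO, against 10.27 to 10.34 in control (limma adjusted p = 0.441). Cplx4 had a log2FC of +0.18 in Tbr1/2 dKO. Its signal was low, at 4.99 to 5.23 in control where array medians were 8.15 to 8.25, and whether it was detected was not tested.

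Sv2b set the mutants apart more than any other vesicle protein. Sv2b (chr7:75114894-75309262, GRCm38.p6) encodes a glycoprotein of the synaptic vesicle membrane, related to the transporter-like Sv2a. It was at 9.82, 9.62, 10.12 and 9.96 for Tbr1 KO, 10.63 and 10.72 for Tbr2 cKO, and 10.82, 10.44 and 10.90 for Tbr1/2 dKO, against 10.27, 10.15 and 10.21 in control. All Tbr1 KO values lay below all control values, and all Tbr2 cKO and Tbr1/2 dKO values above them. Against control none of these passed the threshold, with log2FC of -0.33 for Tbr1 KO (limma adjusted p = 0.614), +0.47 for Tbr2 cKO (limma adjusted p = 0.297) and +0.51 for Tbr1/2 dKO (limma adjusted p = 0.081). The last of these passed without Tbr1/2 dKO embryo 2 (log2FC = +0.65; limma adjusted p = 0.0177).

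Compared directly, Sv2b was higher in Tbr1/2 dKO than in Tbr1 KO (log2FC = +0.84 ± 0.13 SE, 1.79-fold; limma adjusted p = 0.0086), and this held without any 1 embryo (adjusted p of at most 0.0436). It was also higher in Tbr2 cKO than in Tbr1 KO (log2FC = +0.80 ± 0.14 SE; limma adjusted p = 0.0385), which held in 3 of 12 fits with 1 embryo left out, namely Tbr1 KO embryo 3, Tbr1/2 dKO embryo 2 or Tbr1/2 dKO embryo 3, and reached an adjusted p of 0.231 otherwise. Between Tbr1/2 dKO and Tbr2 cKO the difference in Sv2b was +0.05. Both comparisons use the same Tbr1 KO embryos.

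The other vesicle proteins were not called in any comparison. Rab3c, a Rab GTPase of synaptic vesicles, was at 10.81, 10.42, 10.23 and 10.07 for Tbr1 KO, 9.94 and 9.90 for Tbr2 cKO, and 10.20, 9.62 and 9.97 for Tbr1/2 dKO, against 10.47, 10.68 and 10.43 in control. Both mutants without Tbr2 lay below control in every embryo, with log2FC of -0.61 in Tbr2 cKO (limma adjusted p = 0.318) and -0.60 in Tbr1/2 dKO (limma adjusted p = 0.147). Rab3d, a relative known from secretory granules, had -0.32 in Tbr2 cKO (limma adjusted p = 0.388) and -0.29 in Tbr1/2 dKO, and neither passed. Without Tbr1/2 dKO embryo 2, the log2FC in Tbr1/2 dKO was -0.13 (limma adjusted p = 0.489), and that in Tbr2 cKO passed (limma adjusted p = 0.0389).

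Sv2a, in contrast with Sv2b, had log2FC of -0.06 for Tbr1 KO, -0.22 for Tbr2 cKO (limma adjusted p = 0.497) and -0.17 for Tbr1/2 dKO. Syp, the vesicle protein synaptophysin, and Syn1, a synapsin that tethers vesicles to each other, stayed close to control. The 95% interval in Tbr1/2 dKO was -0.24 to 0.10 for Syp and -0.28 to 0.08 for Syn1. Syn2 had log2FC of -0.14, +0.18 and -0.01 in Tbr1 KO, Tbr2 cKO and Tbr1/2 dKO. Rab3a, the main Rab3 of neurons, had -0.08, -0.23 and -0.25 in the same order, with limma adjusted p of 0.97, 0.661 and 0.486.

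Active zone proteins hold vesicles at the release site, and here they did not move as one. Pclo, the giant scaffold piccolo, was at 9.69, 9.39, 9.28 and 9.21 for Tbr1 KO, 9.54 and 9.54 for Tbr2 cKO, and 9.26, 9.26 and 9.24 for Tbr1/2 dKO, against 9.82, 9.84 and 9.40 in control. Its log2FC was -0.44 in Tbr1/2 dKO (limma adjusted p = 0.145) and -0.30 in Tbr1 KO (limma adjusted p = 0.702), and the value in Tbr1/2 dKO passed without control embryo 3, the lowest control (limma adjusted p = 0.0358). Bsn, the related scaffold bassoon, had -0.18, -0.10 and -0.17 in Tbr1 KO, Tbr2 cKO and Tbr1/2 dKO, with limma adjusted p of 0.904, 0.871 and 0.647.

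The long Rims proteins link vesicles to calcium channels, and 4 genes of the family, of long and short forms, were measured. Rims3, a short form of the family, was at 8.82, 8.78, 8.68 and 8.78 for Tbr1 KO, 8.62 and 8.87 for Tbr2 cKO, and 8.92, 9.08 and 9.12 for Tbr1/2 dKO, against 8.62, 8.78 and 8.87 in control. The Tbr1/2 dKO values lay above all others, by a log2FC of +0.28 against control (limma adjusted p = 0.148). Rims4, another short form, had a log2FC of -0.18 in Tbr1 KO (limma adjusted p = 0.548), with all 4 values below control. Rims1 had +0.07, -0.06 and +0.18 in Tbr1 KO, Tbr2 cKO and Tbr1/2 dKO.

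Unc13a, which encodes the priming factor Munc13-1, was the least precisely measured member. It was at 11.09, 11.02, 9.98 and 10.04 for Tbr1 KO, 10.83 and 11.00 for Tbr2 cKO, and 11.10, 10.39 and 11.06 for Tbr1/2 dKO, against 10.80, 10.61 and 10.07 in control. The Tbr1 KO embryos fell into a higher and a lower pair, and the 95% interval in Tbr1/2 dKO ran from -0.36 to 1.08. The SD between embryos of 1 genotype was 0.463 for Unc13a, 0.454 for Rab3b and 0.394 for Stxbp5l, with a median of 0.137 over the members and 0.113 over all genes. Unc13b, by contrast, had a log2FC of -0.04, -0.04 and -0.11 in Tbr1 KO, Tbr2 cKO and Tbr1/2 dKO.

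Snap91 entered the group by its symbol. It encodes AP180, an adaptor for clathrin-mediated recovery of vesicle membrane, and is not a SNARE. Its log2FC was +0.22 for Tbr1 KO, +0.18 for Tbr2 cKO and +0.26 for Tbr1/2 dKO, with no call.

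Across the 16 measured genes of a core list of the release machinery, the intervals differed in width between genes and mutants. The 95% interval lay within 0.5 on either side of 0 for 13 of these genes for Tbr1 KO, 11 for Tbr2 cKO and 9 for Tbr1/2 dKO. Such an interval does not exclude a change smaller than 0.5. Syt1 in Tbr1/2 dKO was the only one called, and the median log2FC was -0.03, -0.13 and -0.14 in Tbr1 KO, Tbr2 cKO and Tbr1/2 dKO.

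**Figure D3:**
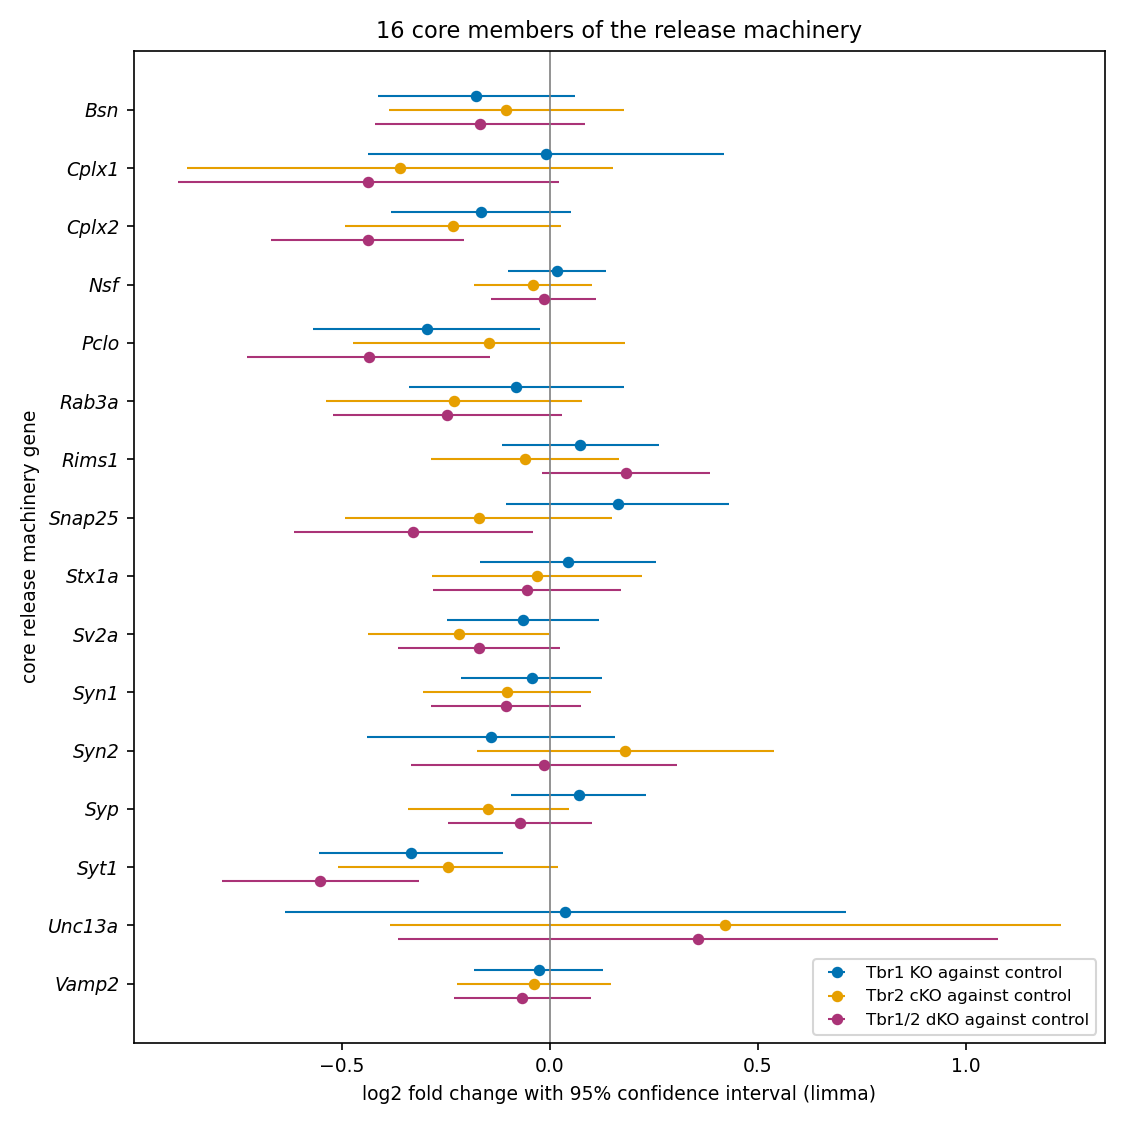
Log2 fold change against control (points) with the 95% confidence interval from limma (lines) of 16 core genes of the release machinery in Tbr1 KO, Tbr2 cKO and Tbr1/2 dKO. Nsf, Stx1a, Syn1, Syp and Vamp2 lie near 0 with short intervals, Unc13a has the widest intervals, and Syt1 in Tbr1/2 dKO is the one called value.

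Direct comparison of the mutants found few members. Against Tbr1 KO, Tbr1/2 dKO had 1 member called higher (Sv2b; 0.599% of all genes) and 1 lower (Stxbp2; 0.646% of all genes). Against Tbr2 cKO, Tbr1/2 dKO had 1 member called higher (Stxbp6, with 0.0269% of all genes) and 0 lower (0.0808% of all genes). There, 7 members had an unadjusted limma p under 0.05 (5.71% higher and 4.29% lower, with 4.3% and 1.92% of all genes). Tbr2 cKO against Tbr1 KO had 1 called higher (Sv2b, with 0.289% of all genes) and 1 lower (Stxbp6, with 0.296% of all genes). Without Tbr1/2 dKO embryo 2 the calls there were 4, with Syt4 and Syt6 added. Calls over all genes rose as well, from 43 higher and 44 lower to 63 and 83.

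The same fit gave the departure of Tbr1/2 dKO from the summed changes of both single mutants. No member was called by limma, where 0.0269% of all genes were. At an unadjusted p under 0.05, 2 members (2.86%) were higher and 0 lower, with 2.29% and 1.14% of all genes. These were Rims3 (departure = +0.28 ± 0.13 SE) and Rims4 (departure = +0.25 ± 0.10 SE), both with a limma adjusted p of 0.999.

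The median difference of an embryo from the control mean was small over all members and larger in some roles. For all 70 members it lay between -0.05 and 0.03 for Tbr1 KO, at -0.09 and -0.03 for Tbr2 cKO and between -0.08 and -0.04 for Tbr1/2 dKO, against -0.02 to 0.02 in control. Tbr1/2 dKO embryo 2 was the lowest of its genotype for the complexins (-0.52), the SNAP family (-0.25) and the vesicle proteins (-0.20). The median of 3 complexins is the value of 1 gene, and Cplx4 was higher in that embryo (5.47) than in control (4.99 to 5.23). The Tbr1 KO embryos spread most for the complexins, from -0.31 to 0.14.

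**Figure D4:**
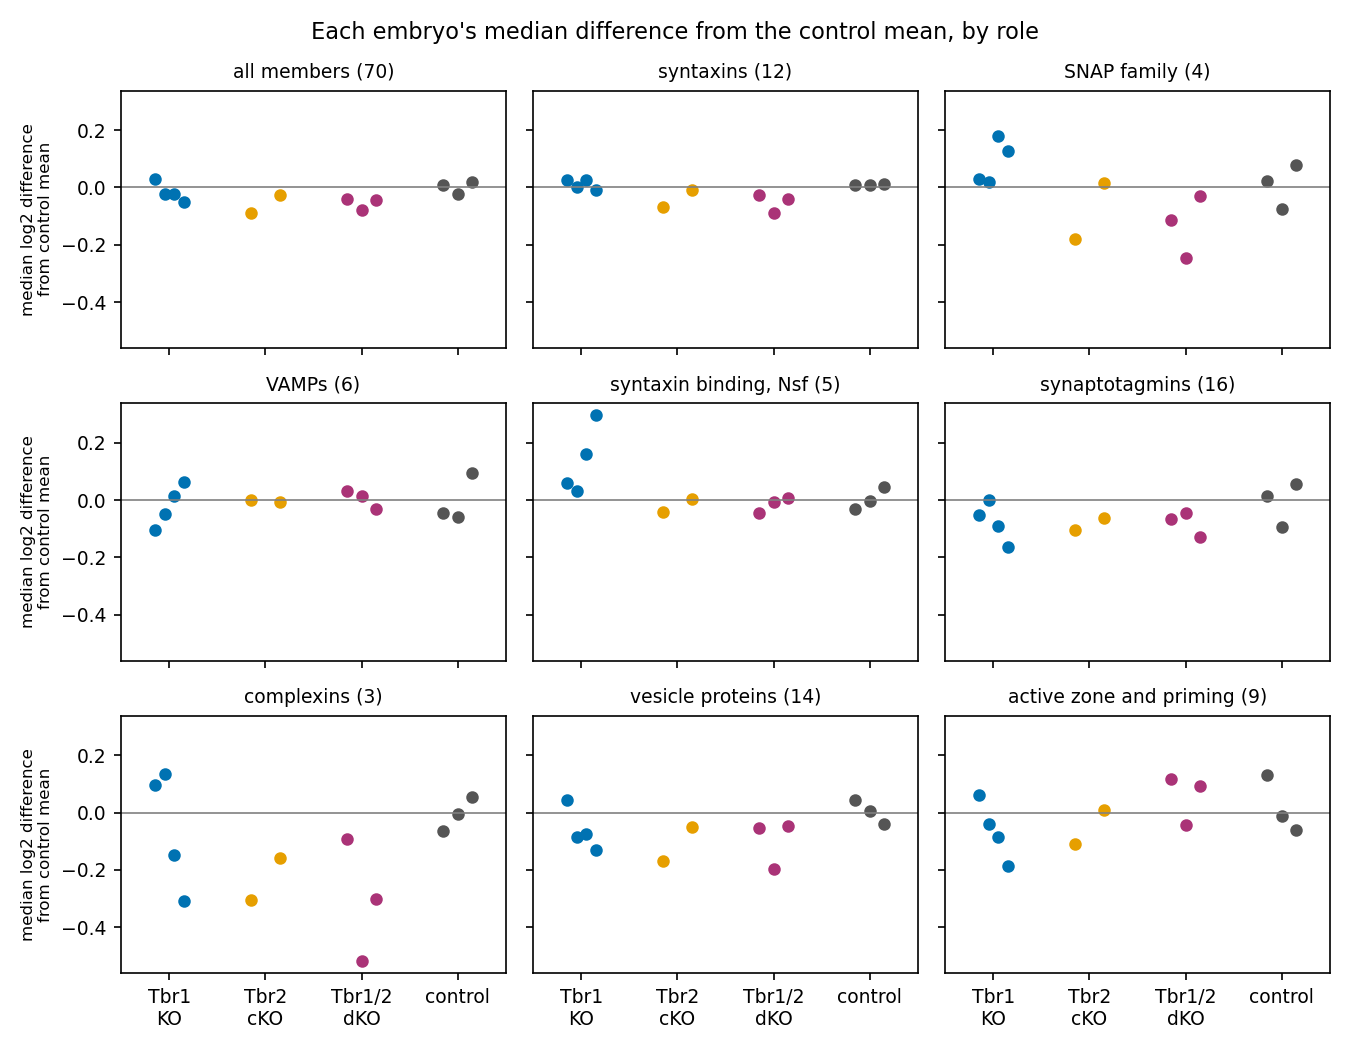
Median over the members of a role of the difference between each embryo (point) and the control mean, in log2 units, with the number of members in brackets and genotypes from left to right as Tbr1 KO, Tbr2 cKO, Tbr1/2 dKO and control. The medians over all members lie between -0.09 and 0.03, while the median of the 3 complexins, which is the value of 1 gene, is -0.52 in Tbr1/2 dKO embryo 2.

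Other presynaptic genes were taken from 4 lists that share no gene with the members. The lists were chosen with earlier results of these data known, and are no independent check. Of their 76 measured genes, 2 (2.63%) were called higher and 5 (6.58%) lower in Tbr1/2 dKO against control, where 1.20% and 1.90% of all genes were. Of 25 further active zone and priming genes, 2 were called by limma in Tbr1/2 dKO: Doc2b, a calcium-binding C2 domain protein, was upregulated (log2FC = +0.39; adjusted p = 0.0455) and Rph3a, the Rab3 effector rabphilin, was downregulated (log2FC = -0.88; adjusted p = 0.0105). Of 20 vesicle membrane and cargo genes, Slc17a7, the vesicular glutamate transporter VGLUT1, and Svop were downregulated in Tbr1/2 dKO (log2FC = -2.16, limma adjusted p = 0.00016; and log2FC = -0.41, limma adjusted p = 0.0168). Slc17a7 was also downregulated in Tbr2 cKO (log2FC = -1.24; limma adjusted p = 0.0345).

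Of 22 endocytosis genes, 1 was called in Tbr1/2 dKO: Dnm3, a neuronal dynamin, was downregulated (log2FC = -0.74; limma adjusted p = 0.0117). Of 9 presynaptic calcium channel genes, Cacna2d1 was upregulated (log2FC = +0.77; limma adjusted p = 0.00599) and Cacna1e was downregulated (log2FC = -1.08; limma adjusted p = 0.0424) in Tbr1/2 dKO. In Tbr1 KO none of the genes in these 4 lists was called, and at an unadjusted limma p under 0.05 there were 4 higher (5.26%) and 7 lower (9.21%), where 3.05% and 3.47% of all genes were. The median log2FC in Tbr1/2 dKO was between -0.04 and 0.06 in the 4 lists, with 1 gene in Tbr2 cKO called, Slc17a7.

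Markers of the tissue's cell types were checked beside these values. The mean log2 expression of 11 pan-neuronal markers was 11.72 to 12.12 for Tbr1 KO, 11.74 to 11.84 for Tbr2 cKO and 11.77 to 11.91 for Tbr1/2 dKO, against 11.59 to 11.72 in control. Of these markers, the neurofilament genes Nefl and Nefm stood apart. Nefl was upregulated in Tbr1 KO (log2FC = +1.66; limma adjusted p = 0.0236) and Tbr1/2 dKO (log2FC = +1.44; limma adjusted p = 0.0269), and Nefm in Tbr1 KO (log2FC = +1.22; limma adjusted p = 0.0189). The mean of the other 9 was 12.09 to 12.34 for Tbr1 KO, 12.20 to 12.28 for Tbr2 cKO and 12.15 to 12.28 for Tbr1/2 dKO, against 12.18 to 12.27 in control. The mean of 10 progenitor markers was 11.47 to 11.65, 11.60 to 11.63 and 11.62 to 11.72, against 11.49 to 11.54 in control. Interneuron markers (9 genes) were at 9.28 to 9.79 for Tbr1 KO, 9.39 to 9.42 for Tbr2 cKO and 8.98 to 9.49 for Tbr1/2 dKO, against 9.47 to 9.80 in control, with Lhx6 and Npy called lower in Tbr1/2 dKO. Cajal-Retzius markers (6 genes) were at 8.62 to 8.92, 9.37 to 9.46 and 8.71 to 9.05, against 8.91 to 9.20 in control. Single Cajal-Retzius markers moved in opposite directions. Ebf3 was upregulated in all 3 mutants (log2FC = +1.34 for Tbr1 KO, +2.59 for Tbr2 cKO and +2.94 for Tbr1/2 dKO; limma adjusted p of at most 0.00356). Reln was downregulated in Tbr1 KO (log2FC = -1.30; limma adjusted p = 0.0152) and Tbr1/2 dKO (log2FC = -2.39; limma adjusted p = 0.000147), and Ndnf in Tbr1/2 dKO (log2FC = -1.15; limma adjusted p = 0.00985). The part of interneurons and Cajal-Retzius cells in the results was not tested.

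Of the non-neural markers, 14 meningeal and vascular genes were highest in Tbr2 cKO embryo 1 (9.16) and Tbr1/2 dKO embryo 1 (9.22), against 8.31 to 8.60 in control. The 4 choroid plexus markers stood at 9.05 in Tbr2 cKO embryo 1, with 6.49 to 7.16 in all other embryos. Without both of these meningeal-rich embryos, Stxbp6, Stxbp2 and Syt13 were called in Tbr1/2 dKO against control, and Stxbp6 in Tbr1 KO. With the meningeal and vascular mean as a covariate, 4 members were called in Tbr1/2 dKO against control (Stxbp2, Stxbp6, Syt1 and Syt13). Over all 14860 genes that fit called 149 higher and 260 lower, where the main fit called 179 and 283. With the pan-neuronal mean as a covariate, 8 members were called (Cplx2, Pclo, Rab3c, Stxbp2, Stxbp6, Sv2a, Syt1 and Syt7), and Syt13 was not. This mean was itself 11.77 to 11.91 in Tbr1/2 dKO, against 11.59 to 11.72 in control, and Nefl, 1 of its genes, was called higher there. Adjusting for it therefore cannot separate cell content from genotype. Over all genes that fit called 155 higher and 339 lower. With the mean of the 9 pan-neuronal markers other than Nefl and Nefm, a covariate chosen after seeing the data, 9 members were called (Cplx1, Cplx2, Pclo, Rab3c, Stxbp2, Stxbp6, Syt1, Syt7 and Syt13). Calls over all genes were then 232 higher and 389 lower, also more than in the main fit.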

How the data were processed

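Affymetrix Mouse Exon 1.0 ST arrays were hybridized with RNA of 12 embryonic neocortices, 1 each. The authors deposited log2 expression values made by RMA, which corrects background, quantile-normalizes arrays and summarizes probes, with the package oligo as named in the submitters' processing notes. Of their versions nothing is given in the sources used here. Quantile normalization forces like distributions on all arrays (array medians 8.15 to 8.25), so that a shift of all genes would not be seen. Precision is limited by how few arrays there are.

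Of 23332 probesets, 14996 had 1 symbol in the platform annotation, 1019 had several and 7317 had none. The brightest probeset on average stood for each of the 135 genes with several. The 70 members had 72 probesets. Coordinates and promoters come from RefSeq tables on GRCm38.p6.

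A linear model with the 4 genotypes was fitted in limma 3.58.1 (R 4.3.3) over all genes with lmFit and eBayes, with 8 residual and 2.89 prior degrees of freedom, and tested on simulated data. Comparisons were each mutant against control, the mutants against each other, and how far Tbr1/2 dKO departed from the summed changes of both single mutants (7 in all). Intervals are limma's, at 95%. Each embryo was an independent biological replicate per the study's methods. The study text gives 4 embryos per genotype, but the labels and methods give the numbers used here.

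Members were taken by symbol alone, but this gene group and the lists were chosen with earlier results of these data known. Values are given for Tbr1 and Eomes, each member called in any comparison or with an unadjusted p under 0.05 against control, the core genes of release, and up to 4 called genes of each other list. Alternatives changed the probeset rule, normalization, filter, prior, weights, samples, cell-content covariates and the replicate block. The replicate numbers of the labels name no litter or day, and deviations of same-numbered arrays correlated from -0.12 to 0.38. All 3 such pairs of Tbr1 KO and Tbr1/2 dKO exceeded 0.1, so the blocked value is given for that comparison, while in each other comparison at least 1 pair did not.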

Additional observations from a re-analysis of the deposited data

How the results depend on the processing

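Among the log2 fold changes of named members under all alternatives, 806 kept their side of the threshold, 57 lost a call, 21 gained one and 0 reversed. Most of these values belonged to changes not called in the main fit, which kept their side by staying uncalled. Of the called changes, Stxbp6 in Tbr1/2 dKO against Tbr2 cKO held in 6 of 24 alternatives. Syt7 in Tbr1/2 dKO against control held in 11 of 24. Stxbp6 (Tbr1 KO and Tbr1/2 dKO against control) and Stxbp2 (Tbr1/2 dKO against control) kept their calls under every alternative run. Other calls depended on the setting, and the cause was not tested. At an unadjusted p under 0.05 in limma, members numbered 9 for Tbr1 KO, 9 for Tbr2 cKO and 14 for Tbr1/2 dKO against control. They numbered 14 in Tbr1/2 dKO against Tbr1 KO (7.14% higher and 12.9% lower, with 5.33% and 5.61% of all genes). Tbr1/2 dKO against Tbr2 cKO had 7 (5.71% and 4.29%, with 4.3% and 1.92% of all genes). Tbr2 cKO against Tbr1 KO had 15 (2.86% and 18.6%, with 3.98% and 8.49% of all genes). The departure from the sum had 2 (2.86% and 0%, with 2.29% and 1.14% of all genes). With array weights (0.42 to 1.7), 2 members were called in Tbr1 KO (Stxbp6 and Syt1) and 8 in Tbr1/2 dKO against control. Calls over all genes rose too, to 64 higher and 122 lower in Tbr1 KO, where the main fit had 32 and 60. In Tbr1/2 dKO they were 262 higher and 341 lower, where the main fit had 179 and 283. With the pan-neuronal mean as a covariate, 2 members were called for Tbr1 KO, 1 for Tbr2 cKO (Syt1) and 8 for Tbr1/2 dKO against control. There were 0 in Tbr1/2 dKO against Tbr2 cKO and 1 in Tbr2 cKO against Tbr1 KO. Over all genes this covariate gave 8 higher and 56 lower in Tbr1 KO, and 29 and 67 in Tbr2 cKO. In Tbr1/2 dKO against control it gave 155 and 339. The pan-neuronal mean itself was higher in every Tbr1/2 dKO embryo than in control. With that mean without Nefl and Nefm, chosen after seeing the data, 2 were called for Tbr1 KO and 9 for Tbr1/2 dKO against control, and 6 in Tbr1/2 dKO against Tbr1 KO (Cplx1, Rab3c, Snap25, Stxbp2, Sv2b and Syt1). With the meningeal and vascular mean, Tbr1/2 dKO against Tbr2 cKO and Tbr2 cKO against Tbr1 KO had 0 and 1. With only the compared groups in the fit, and so fewer embryos, 2 members were called in Tbr1/2 dKO against control, where 83 of all genes were called higher and 145 lower. There was 1 against Tbr1 KO and 0 against Tbr2 cKO, and 1 in Tbr2 cKO against Tbr1 KO. Repeated quantile normalization and median centring left 0 in Tbr1/2 dKO against Tbr2 cKO. With the replicate number as a block, 3 members were called in Tbr1/2 dKO against control (Stxbp2, Stxbp6 and Syt1), 1 against Tbr1 KO (Sv2b) and 0 against Tbr2 cKO. Over all genes the block gave 137 higher and 213 lower in Tbr1/2 dKO against control. The block left Stxbp2 in Tbr1/2 dKO against Tbr1 KO at an adjusted p of 0.0642. Without both embryos of the highest meningeal mean, an alternative chosen after seeing the data, 3 were called in Tbr1/2 dKO against control (Stxbp2, Stxbp6 and Syt13), 1 against Tbr1 KO, 0 against Tbr2 cKO and 0 in Tbr2 cKO against Tbr1 KO. Leaving out each embryo in turn gave 1 call for Tbr1 KO, 0 to 1 for Tbr2 cKO and 3 to 6 for Tbr1/2 dKO against control. It gave 2 in Tbr1/2 dKO against Tbr1 KO, 0 to 1 against Tbr2 cKO, 1 to 4 in Tbr2 cKO against Tbr1 KO and 0 for the departure. Where a Tbr2 cKO embryo was left out, the lone embryo was assumed to vary like the other groups.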
